A study of Mus musculus with 60 samples.

Results

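The SLAM receptor family was followed in leukocytes isolated from the spleens of 3 mouse strains, NOD, NON and C57BL/6 (C57). It was taken here as 7 receptor genes that lie next to each other on chromosome 1 (Cd244a, Ly9, Slamf7, Cd48, Slamf1, Cd84 and Slamf6, in this order) and Sh2d1a on the X chromosome, which encodes their adaptor SAP. Every probe set whose gene symbol or alias in the array annotation was one of these 8 genes was a member, which gave 14 of the 45037 probe sets measured, 12 on the 430A array and 2 on the 430B array. RNA of 30 female mice was hybridised, from 5 NOD, 5 NON and 5 C57 mice of 4 weeks and 5 of each strain of 2 weeks, each mouse on 1 array of either type. All mice were untreated, and the cells went into RNA extraction without culture. The question was which genes differ in NOD mice, which develop autoimmune diabetes spontaneously, before leukocytes enter their pancreatic islets. As controls served NON, a diabetes-resistant relative of NOD, and the more distantly related C57.

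SLAM receptors are immunoglobulin-like molecules on the surface of blood cells. Most of them bind another copy of themselves on a neighbouring cell, while Cd244a, also known as 2B4, binds Cd48. SAP docks to tyrosine motifs in their tails and brings in the kinase Fyn, and where SAP is absent the same tails can recruit phosphatases that inhibit the cell. The family tunes natural killer (NK) cell killing, the help that T cells give to B cells and the development of innate-like T cells.

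The promoters of the 3 receptor genes whose probe sets differed between strains are shown as the landmarks of these genes, 250 bases before and 50 after the annotated start, from RefSeq on GRCm38.p6. That assembly was made from C57BL/6J mice, so the letters are those of the C57 side of each comparison, and NOD and NON sequences were not analysed here. On this build the receptor genes span chr1:171558718-171948958, and the start used in the promoter table need not be the outermost start of a gene. Of the 8 members, 6 had an entry in the promoter table (Cd244a, Slamf7, Cd48, Slamf1, Cd84 and Slamf6). Capitals mark matches, on either strand, to the ETS core GGAA, the AP-1 site TGACTCA, the E-box CACGTG and the RUNX site TGTGGT.
Cd244a promoter, chr1:171558943-171559242, plus strand: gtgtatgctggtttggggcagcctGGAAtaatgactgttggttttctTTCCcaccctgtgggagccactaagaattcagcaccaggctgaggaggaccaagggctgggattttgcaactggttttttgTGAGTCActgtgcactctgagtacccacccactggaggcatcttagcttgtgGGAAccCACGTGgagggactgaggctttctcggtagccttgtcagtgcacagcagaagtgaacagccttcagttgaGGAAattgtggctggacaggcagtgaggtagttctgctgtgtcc
Cd84 promoter, chr1:171839447-171839746, plus strand: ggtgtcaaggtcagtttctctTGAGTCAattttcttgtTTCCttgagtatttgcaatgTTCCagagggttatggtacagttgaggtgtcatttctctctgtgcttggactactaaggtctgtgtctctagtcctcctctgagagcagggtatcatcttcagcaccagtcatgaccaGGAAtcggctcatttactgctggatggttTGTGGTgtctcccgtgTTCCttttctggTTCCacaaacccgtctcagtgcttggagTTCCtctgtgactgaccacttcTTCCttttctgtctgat
Slamf6 promoter, chr1:171917212-171917511, plus strand: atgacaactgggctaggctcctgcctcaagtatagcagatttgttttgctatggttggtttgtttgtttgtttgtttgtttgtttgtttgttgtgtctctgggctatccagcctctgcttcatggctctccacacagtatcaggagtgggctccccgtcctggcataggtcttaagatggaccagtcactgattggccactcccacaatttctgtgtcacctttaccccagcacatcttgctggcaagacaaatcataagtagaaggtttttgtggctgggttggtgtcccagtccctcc
The ETS core occurred 4 times in the Cd244a window and 7 times in the Cd84 window. The Slamf6 window held no match to it, although 96% of all 32851 promoters in the table held at least 1. An AP-1 site stood at base -122 from the start of Cd244a and at base -229 from that of Cd84, and 5.2% of all promoters held such a site. The window of Slamf7 held an AP-1 site too, at base -42. The E-box of Cd244a lay at base -64, and 7.15% of promoters held an E-box. Cd84 had a RUNX site at base -45, as had Cd48 at base -76, against 16.8% of promoters. Further motifs searched were CCGGAA, which contains the ETS core (14.9% of promoters), the GATA site AGATAA (11.2%), the core of interferon-stimulated response elements, GAAA repeated after any 2 bases (3.44%), and TATAAA (13.6%). Of these further motifs, CCGGAA matched once in the Cd48 window and the other 3 matched in none of the 6 windows. Such matches describe the letters of these windows and were not tested for binding.

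Signals were MAS5 intensities, and the 38293 probe sets that reached a signal of 50 in 5 or more of the 30 mice were tested. Of the 14 member probe sets, 13 passed. The exception was 1425571_at of Slamf1, with signals of 4 to 50.1, whose gene had 2 other probe sets that passed. The median signal of an array was 84.8 to 125.6 on 430A and 125.8 to 169.3 on 430B. The Gapdh signal from the 3' end relative to that from the 5' end, a measure that grows as RNA degrades, was above 2 in 5 mice (NON replicates 1 and 5 and C57 replicate 4 of 4 weeks, NON replicate 2 and C57 replicate 5 of 2 weeks) and in no NOD mouse. Leaving out mice by this ratio, as done below, thus removed control mice only. The same ratio for b-Actin reached 3.87 in NOD, 7.02 in NON and 3.403 in C57 mice. It was 1.835 in C57 replicate 4 of 4 weeks and 2.036 in C57 replicate 5 of 2 weeks. Replicate 3 of the 4 week old NOD mice had a median correlation of 0.739 with the other mice of its group. Those mice had 0.847 to 0.859. The leukocyte markers Ptprc, Cd52 and Coro1a were present in every mouse, with summed signals of 7677 to 30895, and markers of erythroid cells and of granulocyte precursors were measured as well. In such a mixture, fewer cells of a type and less RNA per cell cannot be told apart.

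At 4 weeks, 2 of the 13 member probe sets differed between the 3 strains at an adjusted p under 0.05, against 1.51% of all probe sets tested (limma's moderated F-test with Benjamini-Hochberg adjustment, 5 mice a group). Both belonged to Slamf6. At 2 weeks, 3 of 13 differed, both probe sets of Cd244a and 1 of Slamf6, against 1.66% of all. At the stricter adjusted p of 0.005, 1 member remained at each age, 1420659_at of Slamf6 at 4 weeks and 1449991_at of Cd244a at 2 weeks, against 0.473% and 0.528% of all. At an unadjusted p under 0.05, 7 of 13 passed at each age, against 13.4% of all probe sets at 4 weeks and 14.1% at 2 weeks. Counted by gene on the brightest probe set, none of the 8 members passed at 4 weeks and 1 (Cd244a) at 2 weeks. Without the 5 mice of high Gapdh ratio, 1 of 13 passed at 4 weeks and 2 at 2 weeks.

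**Figure D1:**
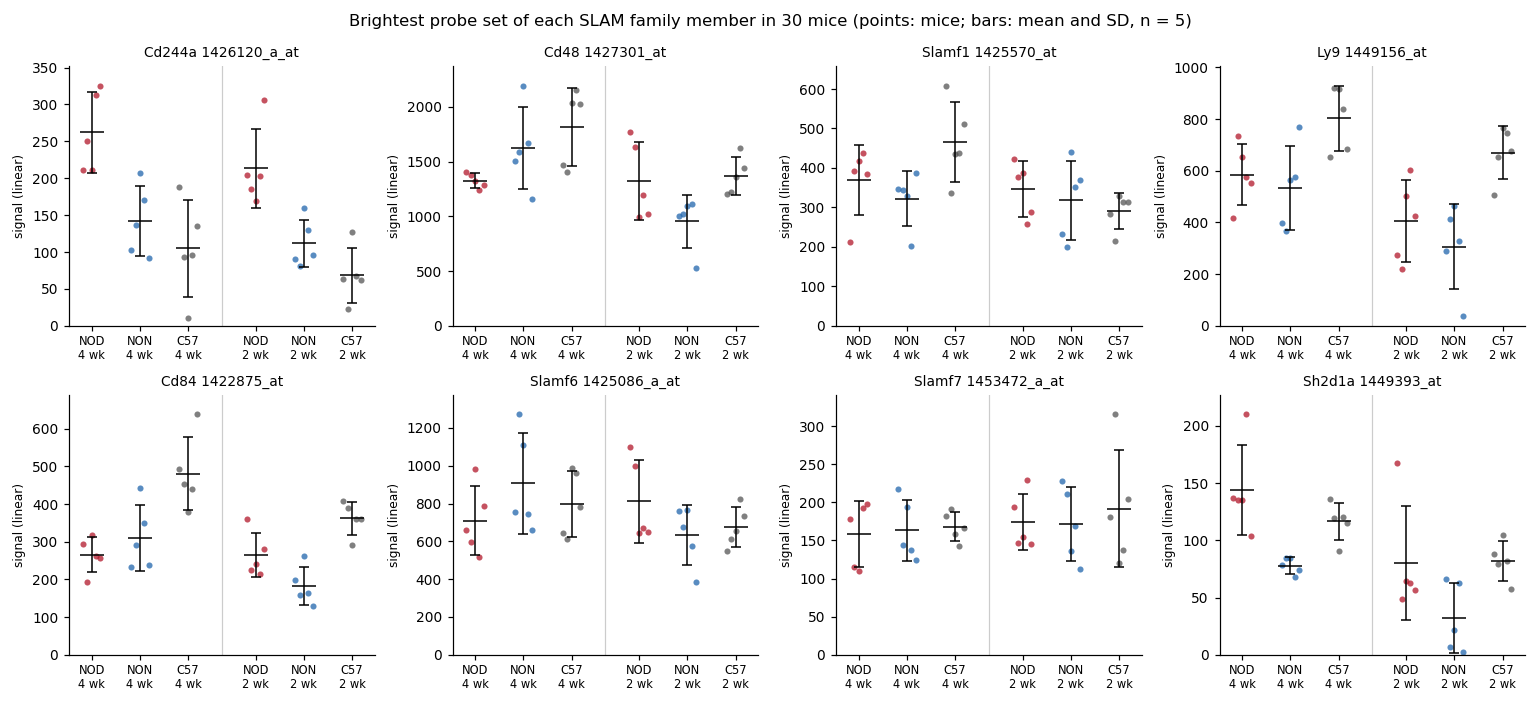
MAS5 signal (linear, from 0) of the brightest probe set of each of the 8 members, with 1 point per mouse and the mean and SD of 5 mice, at 4 weeks (left of each panel) and 2 weeks (right). In the Cd244a panel all NOD mice lie above all NON and C57 mice of their age, whereas the strains overlap in the Slamf7 panel.

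For NOD against the mean of the control strains, 1 of 13 members passed at 4 weeks (Slamf6, lower), against 0.804% of all probe sets, and 2 of 13 at 2 weeks (Cd244a and Slamf6, both higher), against 0.499%. The median difference of the 13 was -0.15 at 4 weeks and 0.21 at 2 weeks on the log2(signal + 10) scale, beside medians of 0.05 and 0.06 over all probe sets. A signal profile with all 5 NOD mice above all 10 control mice was found in 1 member at 4 weeks (1426120_a_at of Cd244a) and in 2 at 2 weeks (both of Cd244a), against 0.308% and 0.253% of all probe sets. At 2 weeks, 1449991_at of Cd244a also passed against each control strain alone, a pattern of higher NOD signal held by 0.047% of probe sets, and no member did so at 4 weeks (0.0627%). No member had all NOD mice below all control mice at either age (0.436% of all probe sets at 4 weeks and 0.274% at 2 weeks).

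Taken by pairs of strains, NOD minus C57 passed for 3 of 13 members at 4 weeks (1.13% of all probe sets) and 3 at 2 weeks (0.841%). NON minus C57 passed for 1 of 13 at 4 weeks (0.794%) and 2 at 2 weeks (1.56%). NOD minus NON passed for none at 4 weeks (limma, 0.582% of all) and for 1 at 2 weeks (0.546%). At 4 weeks, 3 members had an unadjusted p under 0.05 (10.7% of all), and 1 passed after adjustment in the test without moderation. The median difference of the 13 members was -0.07 at 4 weeks and 0.48 at 2 weeks for NOD minus NON, beside 0.04 and 0.05 over all probe sets. At 2 weeks, NOD minus NON was above 0 for 13 of 13 members, most of them not past the threshold. The mice of each strain are shared between these pairs, and the strain pairs are therefore not independent of each other. How many of all probe sets show no overlap between 2 strains was not counted. Such separations, given below, describe single probe sets and are not tests.

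Cd244a encodes the receptor 2B4 of NK cells and some T cells. Whether the strains differ in sequence under its probes was not analysed here. At 2 weeks the Cd244a signal in NOD mice exceeded that in either control strain. Its probe set 1449991_at gave signals of 229, 213, 204, 218 and 209 in the NOD mice, against 65.2, 83.5, 116, 71.4 and 82.7 in NON and 61.2, 84.7, 92.8, 72.1 and 53.4 in C57 mice. The means were 214 ± 9.56 in NOD, 83.8 ± 19.7 in NON and 72.8 ± 16.2 in C57 mice (SD, n = 5 each). The lowest NOD mouse was above the highest control mouse, while NON and C57 mice overlapped. The difference of NOD from the mean of the controls was 1.37 on the log2(signal + 10) scale (standard error 0.16, limma adjusted p = 0.000379), a ratio of mean signals of 2.74. It was 1.28 against NON (adjusted p = 0.00278) and 1.46 against C57 (adjusted p = 0.000612). NON minus C57 was 0.18, with a 95% interval of -0.22 to 0.57.

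The other Cd244a probe set, 1426120_a_at, had the same order of strains at 2 weeks. Its signals were 205, 185, 169, 203 and 306 in NOD mice, against 90.9, 81.6, 159.5, 130.1 and 96.1 in NON and 63.1, 23.1, 128, 66.9 and 61.6 in C57 mice, again with no overlap of NOD and controls. The NOD minus C57 difference was 1.62 (standard error 0.31, limma adjusted p = 0.0206), and that from the mean of the controls, 1.25, missed the threshold (adjusted p = 0.0582). Without the mice of high Gapdh ratio the adjusted p of NOD minus C57 was 0.0521. NOD minus NON was 0.89 (adjusted p = 0.343).

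At 4 weeks the NOD mice were again the highest on both Cd244a probe sets, with some overlap on 1449991_at. On that probe set the signals were 259.9, 240.2, 178, 349 and 339.9 in NOD mice, against 222, 97.9, 128, 167 and 148 in NON and 167, 126, 69.7, 78.7 and 62.8 in C57 mice. All NOD mice exceeded all C57 mice, and 1 NON mouse (221.9) exceeded the lowest NOD mouse (177.6), which was the replicate of low correlation. The NOD minus C57 difference came to 1.40 (standard error 0.29, limma adjusted p = 0.0287), and 0.81 against NON did not pass (adjusted p = 0.31). The difference from the mean of the controls, 1.10, had an adjusted p of 0.0556. Without the mice of high Gapdh ratio the adjusted p of NOD minus C57 was 0.095.

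On 1426120_a_at at 4 weeks, the signals were 211, 250.5, 211, 313 and 326 in NOD mice, against 103, 136, 208, 170.3 and 92 in NON and 188, 93.1, 10.8, 96.3 and 136 in C57 mice. The highest NON mouse lay just under the lowest NOD mouse, and the C57 mice spread from 10.8 to 188.3. No difference on this probe set passed at 4 weeks, with 1.54 for NOD minus C57 (95% interval 0.55 to 2.54, adjusted p = 0.151). The order NOD, NON, C57 held for the means of both probe sets at both ages. Of the neighbours in it, NOD and NON mice overlapped only on 1449991_at at 4 weeks, and their difference passed the adjusted threshold only on 1449991_at at 2 weeks. NON and C57 mice overlapped on both probe sets at both ages, and no difference between them passed.

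The marker genes of 2 cell classes are given beside Cd244a. The 8 NK markers measured had summed signals of 2484 to 5836 in NOD, 5583 to 7514 in NON and 3140 to 5483 in C57 mice at 4 weeks, and of 2478 to 4204, 1426 to 3883 and 1951 to 4364 in NOD, NON and C57 mice at 2 weeks. None of the 8 passed a strain test at either age by limma (3 and 2 at an unadjusted p under 0.05 at 4 and 2 weeks). The 7 monocyte and macrophage markers summed to 12831 to 21167 in NOD, 12557 to 24193 in NON and 9013 to 13683 in C57 mice at 4 weeks, and to 14329 to 19480, 14172 to 15389 and 10568 to 13007 in NOD, NON and C57 mice at 2 weeks. None of these 7 passed either (4 at an unadjusted p under 0.05 at each age), though at 2 weeks the NOD and NON sums lay above all C57 sums. No marker of either list was at 0 in a group mean, which by itself does not show that the cells were present. The part of these markers in the Cd244a differences was not tested.

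Cd48, the ligand of Cd244a, is anchored in the membrane of nearly all leukocytes. Its single probe set 1427301_at gave signals of 1406, 1374, 1321, 1237 and 1285 in NOD mice, against 1505, 1587, 2196, 1669.6 and 1159.6 in NON and 1466, 1403, 2039, 2159 and 2031 in C57 mice at 4 weeks. At 2 weeks they were 1769, 1637, 995, 1198 and 1021 in NOD, 1004, 1026, 1093, 1116 and 529.9 in NON and 1201, 1227, 1358, 1629 and 1446 in C57 mice. The strains overlapped at both ages, apart from NON and C57 at 2 weeks, where every C57 mouse was above every NON mouse. NOD minus the controls was -0.35 at 4 weeks (95% interval -0.71 to 0.01, limma adjusted p = 0.415) and 0.20 at 2 weeks (-0.24 to 0.64, adjusted p = 0.81). NON minus C57 at 2 weeks was -0.56, which did not pass after adjustment (adjusted p = 0.306).

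Slamf6, also known as Ly108, is a receptor of T, B and NK cells that is made in several forms with different tails. Its 3 probe sets went different ways. On 1420659_at, NOD and NON had higher means than C57 at both ages, and the difference passed for NOD at both ages and for NON at 4 weeks. On 1457773_at, both had lower means than C57 at both ages, and the difference passed for NOD at 4 weeks and for NON at 2 weeks. On the brightest, 1425086_a_at, no strain stood apart. Which part or form of the transcript each probe set reads was not analysed here, nor whether the strains differ in sequence under the probes.

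**Figure D2:**
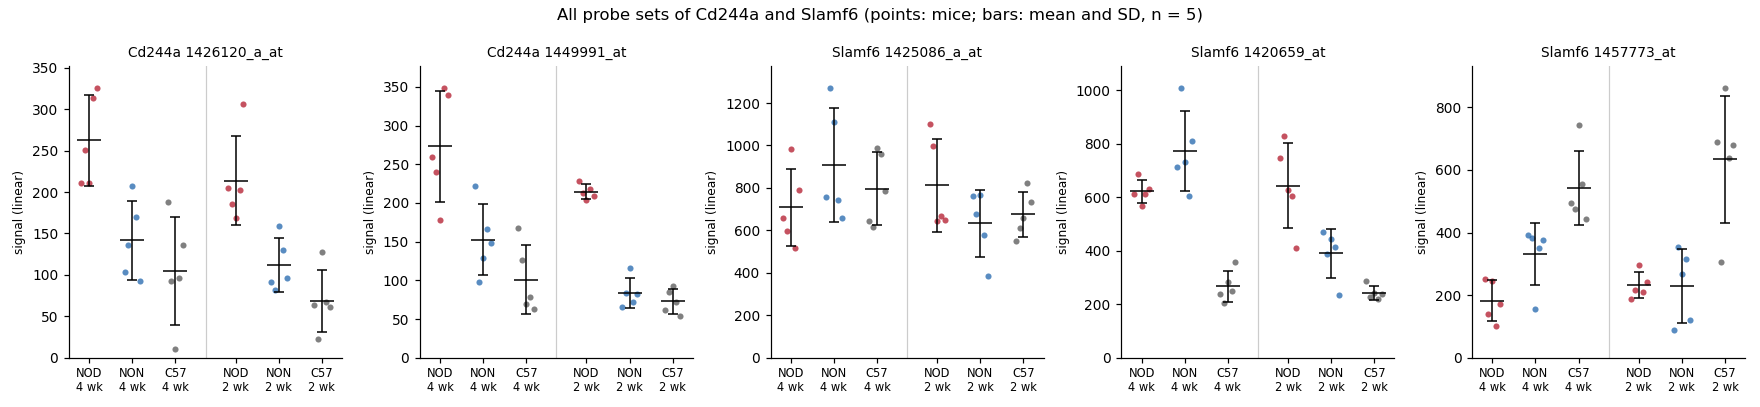
MAS5 signal (linear, from 0) of the 2 probe sets of Cd244a and the 3 of Slamf6, with 1 point per mouse and the mean and SD of 5 mice, at 4 weeks (left of each panel) and 2 weeks (right). C57 mice are lowest on 1420659_at of Slamf6, at means of 267 and 242 at 4 and 2 weeks, and highest on 1457773_at, at means of 542 and 635.

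On 1420659_at at 4 weeks, signals were 613, 689, 568, 612 and 629.7 in NOD and 713, 1009, 731, 603 and 811 in NON mice, against 237, 205, 283, 249.6 and 359 in C57 mice. The means were 622 ± 43.5 in NOD, 773 ± 151 in NON and 267 ± 58.7 in C57 mice (SD, n = 5 each). Neither NOD nor NON overlapped with C57, while they overlapped with each other. NOD minus C57 was 1.22 (standard error 0.19, ratio of mean signals 2.33, limma adjusted p = 0.00413). NON minus C57 was 1.51 (standard error 0.19, ratio 2.9, adjusted p = 0.000594). NOD minus NON was -0.29, with a 95% interval of -0.69 to 0.11.

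At 2 weeks the signals on 1420659_at were 748, 828, 628, 606 and 409 in NOD mice, 469, 386, 444, 415 and 234 in NON mice and 286, 225, 240.2, 221 and 239 in C57 mice. All NOD mice were above all C57 mice, and 4 of the 5 NON mice were above all C57 mice too. The difference of NOD from C57 was 1.34 (standard error 0.23, limma adjusted p = 0.00694), whereas NON minus C57, 0.63, and NOD minus NON, 0.71, did not pass (adjusted p = 0.209 and 0.265). NOD minus the mean of the controls was 1.02 (adjusted p = 0.0257), and its adjusted p was 0.0649 without the mice of high Gapdh ratio.

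On 1457773_at, C57 mice had the high signals. At 4 weeks these were 251, 139, 246, 101 and 173 in NOD and 394, 382, 155, 349.7 and 378 in NON mice, against 493, 475, 743, 556 and 445 in C57 mice, where neither NOD nor NON overlapped with C57. Against C57, the NOD difference was -1.57 (standard error 0.30, limma adjusted p = 0.017), with NOD at 0.336 of the C57 mean signal. NOD minus the mean of the controls was -1.20 (adjusted p = 0.0437). NON minus C57, -0.74, and NOD minus NON, -0.83, did not pass (adjusted p = 0.398 and 0.309).

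At 2 weeks the signals on 1457773_at were 189, 217, 298, 211 and 242 in NOD, 87.2, 353, 269, 316 and 121 in NON and 689.5, 306, 862, 639 and 678 in C57 mice. All NOD mice lay under all C57 mice, and 1 NON mouse (352.6) was above the lowest C57 mouse (305.9). NON minus C57 was -1.54 (standard error 0.36, limma adjusted p = 0.0473), and NOD minus C57, -1.36, did not pass (adjusted p = 0.118). The calls on this probe set were near the threshold. Without the mice of high Gapdh ratio the adjusted p was 0.0681 for NOD minus C57 at 4 weeks, 0.171 for NOD minus the controls at 4 weeks and 0.0516 for NON minus C57 at 2 weeks.

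The brightest Slamf6 probe set, 1425086_a_at, gave 658, 596, 982, 515 and 789 in NOD, 757, 1271, 1109, 742 and 658 in NON and 643, 615, 986, 959 and 783 in C57 mice at 4 weeks. At 2 weeks it gave 1101, 996, 646, 668 and 649 in NOD, 760, 678, 764, 576 and 387 in NON and 550.4, 612, 657, 821 and 735 in C57 mice, and the strains overlapped at both ages. NOD minus C57 was -0.18 at 4 weeks (95% interval -0.70 to 0.34) and 0.24 at 2 weeks (-0.26 to 0.73). These intervals do not reach the NOD minus C57 differences of the other 2 probe sets of the gene. Over the 30 mice, the Pearson correlation of the log2 signals was -0.52 between 1420659_at and 1457773_at, 0.39 between 1425086_a_at and 1420659_at and 0.14 between 1425086_a_at and 1457773_at, where points share the strain and age groups.

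Cd84, a self-binding receptor of B cells, T cells, platelets and myeloid cells, was lowest in NON mice at 2 weeks on 1422875_at, but not on its other probe set. On 1422875_at the 2 week signals were 359, 226, 240.3, 214 and 282 in NOD, 198, 158, 263, 164 and 129 in NON and 407, 389, 292, 361 and 361 in C57 mice. Every NON mouse lay under every C57 mouse, and NOD mice overlapped with both. NON minus C57 was -0.98 (standard error 0.21, limma adjusted p = 0.027), a ratio of mean signals of 0.503. The F-test across strains missed the threshold (adjusted p = 0.0579), and without the mice of high Gapdh ratio the adjusted p of NON minus C57 was 0.07.

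At 4 weeks, 1422875_at gave 294, 194, 317, 263 and 256 in NOD, 232, 292, 442, 351 and 238 in NON and 493, 453, 380.3, 439.9 and 638 in C57 mice. All NOD mice lay under all C57 mice, and NON mice lay between, with overlap on both sides. NOD minus C57 was -0.83, which did not pass (limma adjusted p = 0.0918). The other Cd84 probe set, 1446505_at on the 430B array, spread from 50.7 to 530.5 over the 30 mice and differed between no strains (adjusted p of the F-test = 0.677 at 4 weeks and 0.871 at 2 weeks). Its means at 2 weeks were 337 in NOD, 293 in NON and 274 in C57 mice. Its Pearson correlation with 1422875_at was 0 over the 30 mice, so that the 2 probe sets of this gene did not vary together.

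**Figure D3:**
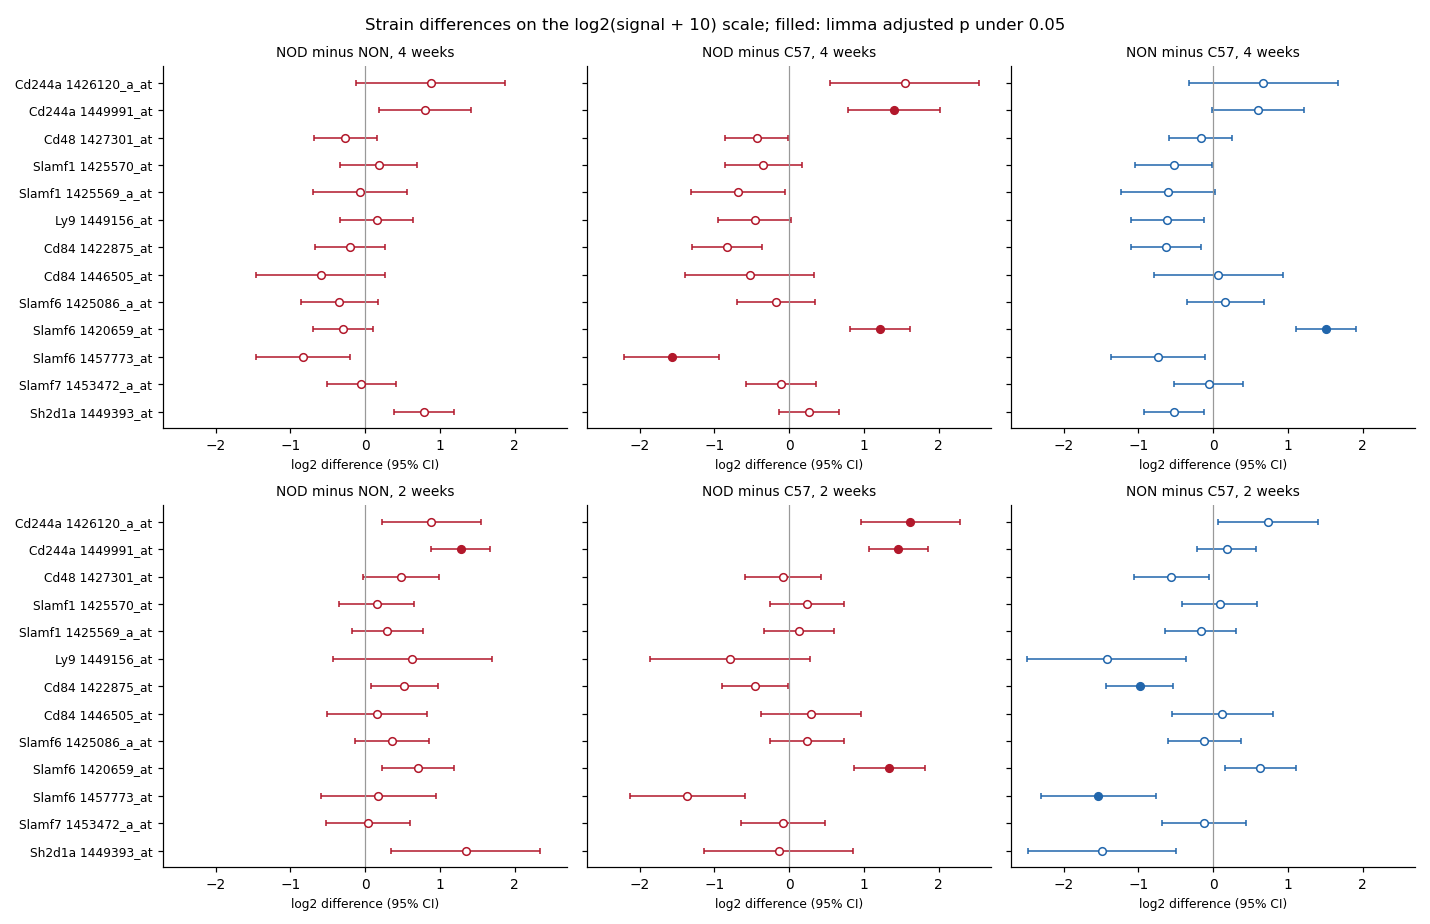
Differences between strains of the 13 tested member probe sets on the log2(signal + 10) scale with 95% intervals, at 4 weeks (upper row) and 2 weeks (lower row). Filled points have a limma adjusted p under 0.05: the 2 probe sets of Cd244a and 1420659_at of Slamf6 lie right of 0 in NOD minus C57 at 2 weeks, and 1457773_at of Slamf6 lies left of 0 at 4 weeks.

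Ly9, a self-binding receptor of T and B cells that lies beside Cd244a, gave 415, 734, 652, 574.3 and 552 in NOD, 397, 366, 565, 575 and 769 in NON and 655, 921, 915, 839.9 and 682 in C57 mice at 4 weeks. At 2 weeks its signals were 273, 218, 500.3, 603 and 426 in NOD, 288, 415, 463, 327 and 38.6 in NON and 506, 652, 764, 747 and 676 in C57 mice. C57 had the highest mean at both ages, and at 2 weeks all NON mice lay under all C57 mice, the lowest being 38.6 in replicate 5. That mouse had the lowest signal of its group also on Cd48, Sh2d1a, Slamf7, 1422875_at of Cd84 and 2 of the 3 probe sets of Slamf6. NON minus C57 at 2 weeks was -1.43 (95% interval -2.49 to -0.36), which did not pass (limma adjusted p = 0.203). NOD minus C57 was -0.46 at 4 weeks and -0.79 at 2 weeks, with adjusted p of 0.415 and 0.578.

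Slamf1, the receptor for which the family is named and a marker of blood stem cells and activated lymphocytes, differed between no strains. On 1425570_at, its brightest probe set, the 4 week signals were 213, 393, 417, 437 and 385 in NOD, 346, 343, 329, 203 and 387 in NON and 609, 338, 435, 438 and 512 in C57 mice. The 2 week signals were 424, 378, 388, 258 and 289 in NOD, 232, 198, 440.1, 353 and 368 in NON and 282, 216, 328, 313 and 314 in C57 mice, with overlap of all strains. NOD minus the controls was -0.08 at 4 weeks (95% interval -0.53 to 0.37) and 0.20 at 2 weeks (-0.23 to 0.63). The other tested probe set, 1425569_a_at, ranged from 38.9 to 233.8, and its largest difference was -0.68 for NOD minus C57 at 4 weeks (limma adjusted p = 0.343).

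Slamf7, a self-binding receptor of NK and plasma cells, had the smallest strain differences of the family, the furthest from 0 being -0.12. At 4 weeks 1453472_a_at gave 179, 115, 109, 193 and 198 in NOD, 217, 144, 194, 138 and 124 in NON and 182, 191, 159, 143 and 166 in C57 mice. At 2 weeks it gave 193, 147, 155, 229 and 145 in NOD, 228, 211, 136, 169.5 and 113 in NON and 181, 316, 120.1, 138 and 204 in C57 mice, with overlap of all strains. NOD minus the controls was -0.08 at 4 weeks (95% interval -0.48 to 0.32, limma adjusted p = 0.899) and -0.02 at 2 weeks (-0.51 to 0.47, adjusted p = 0.988).

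Sh2d1a encodes SAP, the adaptor on which most receptors of the family rely, which is made in T and NK cells. Its probe set 1449393_at gave 137, 135, 135, 210 and 104 in NOD, 78.8, 84.5, 84.3, 67.5 and 73.8 in NON and 136, 119.6, 90.4, 121 and 115 in C57 mice at 4 weeks. At 2 weeks it gave 168, 48.9, 64.7, 62.5 and 56.7 in NOD, 66.1, 6.3, 21.2, 63 and 2.6 in NON and 87.8, 78.9, 105, 82.1 and 57 in C57 mice. At 4 weeks every NON mouse lay under every NOD and every C57 mouse, and at 2 weeks 3 of the 5 NON mice lay under all others. The share of all probe sets with such a separation was not counted. No strain difference passed by limma. The one furthest from 0 was -1.49 for NON minus C57 at 2 weeks (adjusted p = 0.146), and the one of lowest adjusted p, 0.0947, was 0.78 for NOD minus NON at 4 weeks.

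The age change of the family was tested within each strain over all 30 mice. In NON mice, 2 of 13 members rose, 1420659_at of Slamf6 and Sh2d1a, against 1.46% of all probe sets called in either direction and 0.812% called higher. No member changed in NOD mice (limma, 0.146% of all called) or in C57 mice (0.46% of all called). At an unadjusted p under 0.05, 1 member passed in NOD, 7 in NON and 2 in C57 mice. The shares of all probe sets were 8.9% in NOD, 13% in NON and 6.7% in C57 mice. The median change of the 13 was 0.01 in NOD, 0.62 in NON and 0.36 in C57 mice, beside medians of 0.00 in NOD, 0.00 in NON and 0.03 in C57 mice over all probe sets. The change was above 0 for 7 of 13 in NOD, 12 of 13 in NON and 11 of 13 in C57 mice.

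On 1420659_at of Slamf6, the NON mice of 4 weeks, listed above, all exceeded the NON mice of 2 weeks. The change was 0.99 (standard error 0.20, limma adjusted p = 0.00925) in NON mice, a ratio of mean signals of 1.99. It was -0.01 in NOD (95% interval -0.42 to 0.39) and 0.11 in C57 mice (-0.29 to 0.52). Sh2d1a rose by 1.44 in NON mice (standard error 0.36, adjusted p = 0.0424). Its NON signals were 67.5 to 84.5 at 4 weeks and 2.6 to 66.1 at 2 weeks, partly under the signal minimum of 50. This call was lost with a pseudocount of 50. The change of Sh2d1a was 0.87 in NOD (0.12 to 1.62) and 0.47 in C57 mice (-0.28 to 1.22), intervals that overlap with that of NON. Next in NON mice came Cd48, at 0.78 (adjusted p = 0.0561), and 1422875_at of Cd84, at 0.74 (adjusted p = 0.0664).

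**Figure D4:**
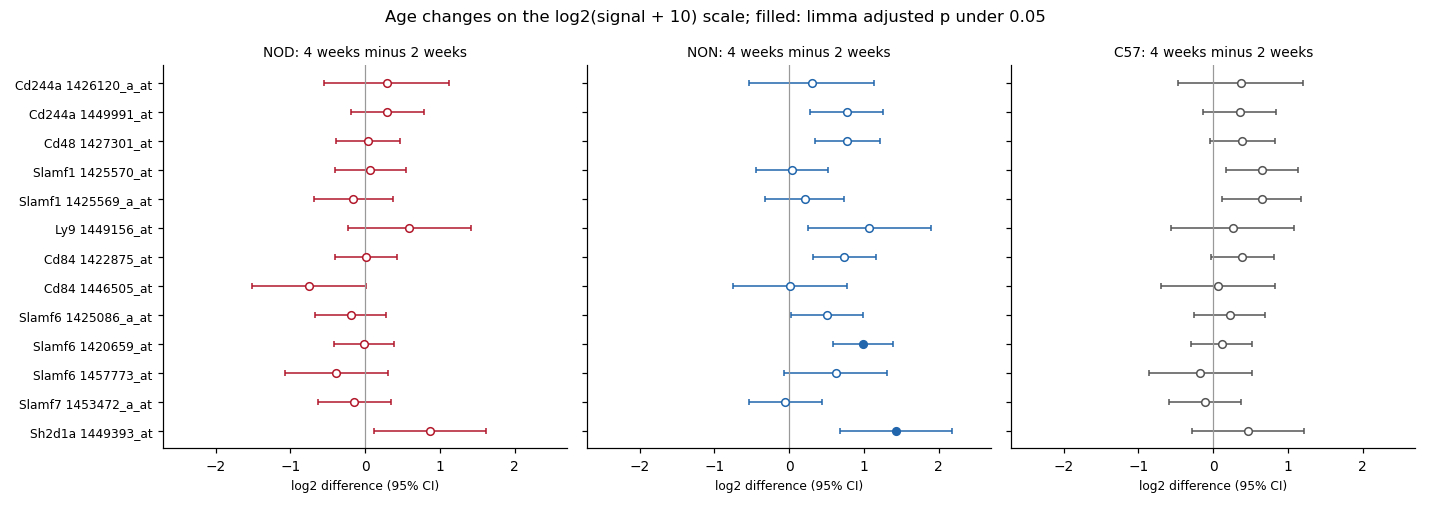
Change with age (4 weeks minus 2 weeks) of the 13 tested member probe sets on the log2(signal + 10) scale with 95% intervals, in NOD, NON and C57 mice. Filled points have a limma adjusted p under 0.05, and the only 2 are Slamf6 1420659_at and Sh2d1a in NON mice.

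The difference of the age changes between strains was tested itself. No member passed the F-test of strain by age (limma, 1 of all 38293 probe sets or 0.00261% passed). At an unadjusted p under 0.05, 1 member passed, against 6.9% of all probe sets. The changes in NON were thus not shown to differ from those in the other strains. The change in NOD minus the mean change of the controls was below 0 for 13 of 13 members, with a median of -0.55 beside -0.02 over all probe sets and an adjusted p of at least 0.785. These 13 values come from the same mice and share the same 3 age changes. The NON age calls did not hold without the mice of high Gapdh ratio (3 of the 10 NON mice), where 0 of 13 passed, with adjusted p of 0.114 for Slamf6 and 0.309 for Sh2d1a. Over all probe sets, the age change in NON was called for 49 without these mice, against 560 with them.

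T and NK cell markers moved with age in NON mice as well, and so did single markers of other lists. Higher at 4 weeks were the leukocyte marker Ptprc (0.95, limma adjusted p = 0.027) and Cd22 of B cells (0.93, 0.023). So were Cd209a of dendritic cells (1.35, 0.019) and Jchain of plasma cells (1.90, 0.018), while Ppbp of platelets was lower (-2.58, 0.024). None of these passed without the mice of high Gapdh ratio. The 9 T cell markers had summed signals of 6118 to 7860 in NOD, 4056 to 4975 in NON and 7005 to 10140 in C57 mice at 4 weeks, and of 3332 to 6323, 1068 to 2681 and 4131 to 8242 in NOD, NON and C57 mice at 2 weeks. NON sums lay under those of the other strains at each age, and the NON sums of 4 weeks lay above those of 2 weeks. Of the 9, 5 rose with age in NON mice (Cd3d, Cd3g, Cd4, Cd8a and Cd8b1), with a median change of 1.23 over the 9, and none in NOD or C57 mice (limma, 6 and 3 at an unadjusted p under 0.05 in NOD and C57 mice). Of the 8 NK markers, 4 rose in NON mice (Ncr1, Klre1, Gzma and Eomes) with a median change of 1.09 over the 8, and none in NOD or C57 mice (2 in each at an unadjusted p under 0.05). Without the mice of high Gapdh ratio, the age change in NON mice passed for 0 of the 9 T cell markers and 2 of the 8 NK markers (limma, 8 and 7 at an unadjusted p under 0.05). Lower at 4 weeks were 2 in NOD, 2 in NON and 7 in C57 mice of 9 markers of granulocytes and their precursors (limma). At an unadjusted p under 0.05, 9 passed in NOD, 4 in NON and 9 in C57 mice. The median change of this list was -1.20 in NOD, -0.21 in NON and -2.03 in C57 mice. Of 6 erythroid markers none changed in any strain (limma, also none at an unadjusted p under 0.05). Across strains, 4 T cell markers differed at 4 weeks and 3 at 2 weeks. The leukocyte markers summed to 7677 to 22604 in NON mice at 2 weeks and to 19788 to 29691 at 4 weeks. The lowest sum was that of replicate 5 of 2 weeks, whose erythroid sum (12337) was the highest of all mice. No marker of the T and NK cell lists was at 0 in a group mean, which by itself does not show that the cells were present. The part of any of these markers in the changes of Sh2d1a and Slamf6 was not tested.

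Among themselves, the members fell into no single pattern over the 30 mice, as given by Pearson correlations of log2 signals whose points share strain and age groups. Cd48 went with 1425086_a_at of Slamf6 (r = 0.73), 1422875_at of Cd84 (0.72), Sh2d1a (0.62) and Ly9 (0.60), but not with its receptor Cd244a (-0.07 and -0.02 for the 2 probe sets). The 2 Cd244a probe sets went together (0.74), and 1449991_at of Cd244a went with 1420659_at of Slamf6 (0.63) and against 1457773_at of Slamf6 (-0.50). Slamf7 had its furthest value from 0 with 1425570_at of Slamf1 (-0.37).

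Outside the family, the genes whose probe sets were most like each called member over the 30 mice are given with their Pearson r. For 1449991_at of Cd244a they were LOC664787 (0.839), Adam23 (0.833) and Cadm1 (0.828), and for 1426120_a_at they were Clec4n (0.822), Adgre1 (0.812) and Sult1a1 (0.806). The 2 probe sets of Cd244a thus named different genes. For Slamf6 they were Ssu72 (0.879), Trib3 (0.848) and BC018473 (0.847) on 1420659_at, and Otud1 (0.838), Ppil4 (0.804) and Ppp3ca (0.799) on 1457773_at. For 1422875_at of Cd84 they were Ephx1 (0.838), Ifi209 (0.809) and 5031425E22Rik (0.8). For Sh2d1a they were Trav9d-3 (0.903), Cd3g (0.898), which encodes a chain of the T cell receptor complex, and Ms4a6b (0.862).

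A list of 30 further family members and signalling partners was followed on the brightest probe set of each gene, and 27 were measured. At 4 weeks none of the 27 differed between strains (limma, 6 at an unadjusted p under 0.05), and at 2 weeks 2 did (12 at an unadjusted p under 0.05). These were Pik3c3, a lipid kinase that associates with Slamf1 and Becn1 in phagocytes (adjusted p = 0.032), and Cd247, the zeta chain of the T cell receptor complex (adjusted p = 0.034). Pik3c3 averaged 208.5 in NOD, 116.5 in NON and 192.2 in C57 mice at 2 weeks, and Cd247 averaged 183.8 in NOD, 111.3 in NON and 269.5 in C57 mice, so that NON had the lowest mean of both. No partner passed for NOD against the controls at either age (limma). Without adjustment, 5 at 4 weeks and 2 at 2 weeks had a p under 0.05, against 12.7% and 9.44% of all probe sets. The median differences were 0.01 at 4 weeks and 0.00 at 2 weeks.

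With age, 7 of the 27 partners changed in NON mice and none in NOD or C57 mice (limma, 4 and 2 at an unadjusted p under 0.05 in NOD and C57 mice), against 1.46% of all probe sets in NON, 0.146% in NOD and 0.46% in C57 mice. Without the mice of high Gapdh ratio 1 of the 27 passed in NON (limma, 7 at an unadjusted p under 0.05). No partner passed the test of strain by age (limma, lowest adjusted p = 0.618, 6 at an unadjusted p under 0.05). Higher at 4 weeks were Fyn, the kinase that SAP recruits (change 1.10, limma adjusted p = 0.035), Prkcq, the protein kinase C of T cells (1.95, adjusted p = 0.018), Cd247 (1.14, adjusted p = 0.014) and Zap70, the kinase that binds Cd247 (0.79, adjusted p = 0.04). Also higher were Ncr1, an activating receptor of NK cells (1.19, adjusted p = 0.021), and Rasa1, an inhibitor of Ras (0.66, adjusted p = 0.037). Ap2m1, a subunit of the clathrin adaptor that takes receptors into the cell, was lower (-0.84, adjusted p = 0.01). The median change of the list was 0.32 in NON, 0.16 in NOD and 0.13 in C57 mice. Slamf8 and Slamf9, receptors of the same family outside the 8, passed no strain test and no age test. The age change of Slamf8 was 0.90 in NOD (limma adjusted p = 0.11), 0.19 in NON (0.8) and 0.57 in C57 mice (0.54), with mean signals of 205 at 4 weeks and 105.4 at 2 weeks in NOD mice.

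The genes next to the family on chromosome 1 were followed in the same tests. Of 31 genes, 15 on either side and 1 between members, 26 were on the arrays and 24 passed the signal filter. On the brightest probe set of each, none of the 24 passed a strain test or an age test (limma, 4 at 4 weeks and 2 at 2 weeks at an unadjusted p under 0.05 for strain). The member counts above run over all probe sets, and on the brightest ones alone the members, too, had no call across strains at 4 weeks and 1 (Cd244a) at 2 weeks. For NOD against the controls, 4 of 24 at 4 weeks and 2 at 2 weeks had an unadjusted p under 0.05 (limma). The shares of all probe sets were 12.7% at 4 weeks and 9.44% at 2 weeks. The median difference of the list was 0.07 at 4 weeks and -0.02 at 2 weeks. Along the chromosome, Cd244a at one end of the cluster and Slamf6 at the other end held the called probe sets of NOD minus C57, and Ly9, Slamf7, Cd48, Slamf1 and Cd84 between them held none.

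**Figure D5:**
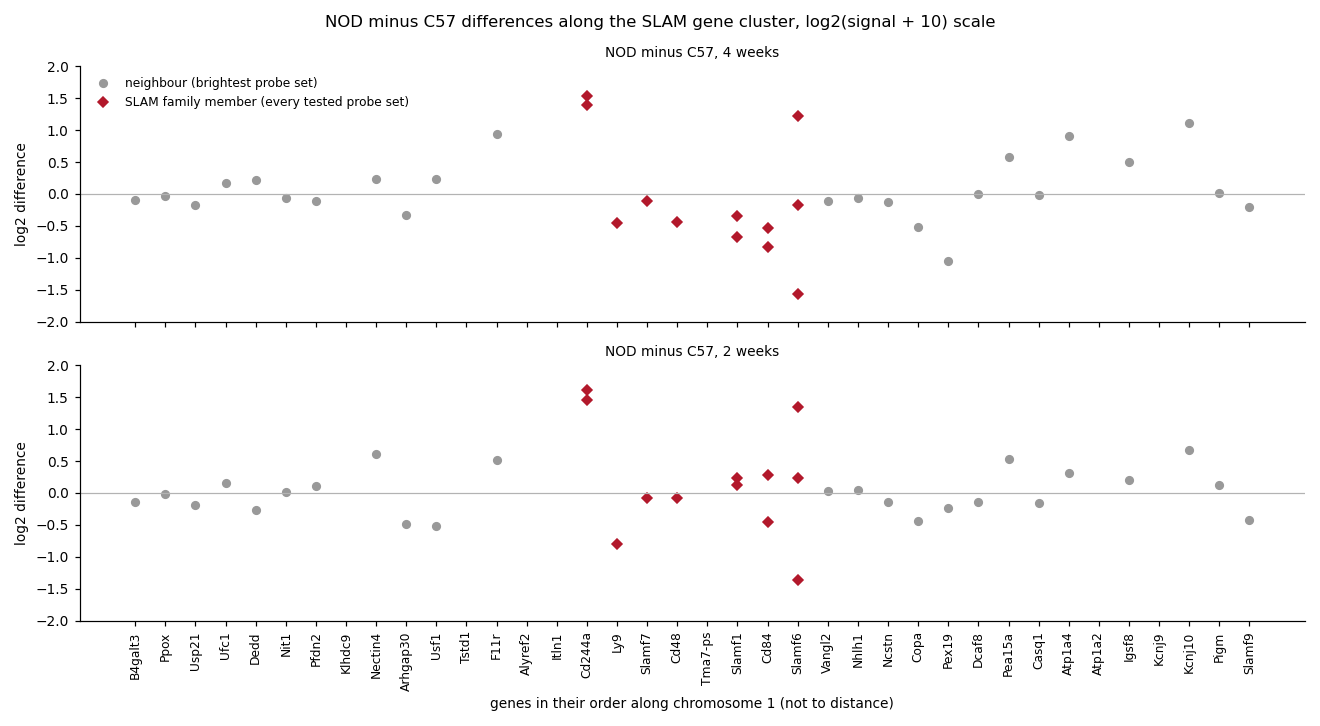
NOD minus C57 difference on the log2(signal + 10) scale at 4 weeks (upper panel) and 2 weeks (lower panel) for genes in their order along chromosome 1, without their distances. Diamonds are tested probe sets of the 7 SLAM receptor genes and circles are neighbours by their brightest probe set. Cd244a lies above 1.4 on both probe sets at both ages, and the 3 diamonds of Slamf6 spread from -1.57 to 1.22 at 4 weeks.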

How the data were processed

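RNA of spleen leukocytes from 30 mice was hybridised to a 430A and a 430B array each. The authors deposited MAS5 signal intensities, scaled per array by a global factor. The methods name a trimmed mean of 100 as target, and the 2% trimmed mean of the deposited columns is 250. The study's filter on present and marginal calls was not used here. Of 45037 probe sets, 38293 with a signal of at least 50 in at least 5 mice were tested as log2(signal + 10), a scale that understates changes of dim probe sets, with limma 3.58.1 in R 4.3.3. Strains were compared over the 15 mice of an age, and ages and strain by age over all 30, with Benjamini-Hochberg adjustment over all tested probe sets. The moderated test stands in for the one-way test of the methods, which was an alternative. Mice are separate animals, so p-values measure the spread between mice. The number of arrays limits the precision.

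Probe sets were named from the platform annotation (1 symbol for 34945 probe sets, several for 932, none for 9160). Values were given for called probe sets and for the brightest probe set of each member, list counts used the brightest, and the 3 genes of highest correlation were named. Members and lists were chosen with earlier results of these data known. On simulated data with 100 changed probe sets of each size (NOD against controls at 2 weeks, 37978 probe sets), 72 of 100 at 4-fold and 34 of 100 at 2-fold were recovered, with 8 false calls. Alternatives changed the pseudocount, filter, scaling, test, replicate block, mice in the fit, adjustment and mice left out.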

Additional observations from a re-analysis of the deposited data

Results flagged for a closer look

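In 8 of 84 groups of 5 mice, 1 mouse lay far from the other 4 by Dixon's test at 95%, and chance marks about 1 in 20 groups. In NOD mice of 4 weeks, replicate 1 had a Slamf1 signal of 213.3 on 1425570_at, against 385.1 to 437 in the others, and replicate 3 had 21.1 on 1425571_at of Slamf1, against 4.2 to 6.5. In NOD mice of 2 weeks, replicate 5 had 305.7 on 1426120_a_at of Cd244a, against 169 to 205, replicate 2 had 50.1 on 1425571_at of Slamf1, against 4.7 to 10.5, and replicate 1 had 167.9 on Sh2d1a, against 48.9 to 64.7. In NON mice, replicate 3 of 4 weeks had 154.8 on 1457773_at of Slamf6, against 349.7 to 393.5, and replicate 5 of 2 weeks had 529.9 on Cd48, against 1004 to 1116. In C57 mice of 2 weeks, replicate 5 had 122.7 on 1425569_a_at of Slamf1, against 80.7 to 91. No member differed between strains in its age change by the test of strain by age.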

How the results depend on the processing

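Each of 8 counts of members called and 15 differences was recomputed under 41 alternatives. No difference changed sign. The strain difference at 2 weeks (3 members) was 5 with a pseudocount of 50 and 5 in a fit of all 30 mice, and 2 to 4 when single mice were left out. The strain difference at 4 weeks (2 members) was 1 with the replicate block, 4 in the fit of all 30 mice, 1 to 3 without single mice and 1 without the mice of high Gapdh ratio, an alternative added after seeing the data. NOD against the controls at 2 weeks (2 members) was 1 with median scaling, 1 without the mice of high Gapdh ratio and 1 to 3 without single mice. NOD against the controls at 4 weeks (1 member) was 0 with a pseudocount of 1, no filter, the methods' test, the replicate block or without the mice of high Gapdh ratio, 2 with a pseudocount of 50, a filter at a signal of 100 or the fit of all 30 mice, and 0 to 2 without single mice. The age change in NON (2 members) was 4 with a filter at 100, adjustment within each array type or the test without moderation. It was 1 with median scaling, and 0 in a fit of the NON mice alone and without the mice of high Gapdh ratio. Without single mice it was 1 to 3. The age change of the signalling partners in NON (7) was 1 without the mice of high Gapdh ratio. The cause was not tested. Over all probe sets, the count called across strains was 635 at 2 weeks (993 in the fit of all 30 mice) and 578 at 4 weeks (960 in that fit, 367 with the replicate block, 273 without the mice of high Gapdh ratio). For NOD against the controls at 4 weeks it was 308 (570, 201 and 156 under these same alternatives). For age it was 560 in NON (321 with median scaling, 23 in NON mice alone, 49 without the mice of high Gapdh ratio, 157 to 916 without single mice), 56 in NOD (18 with median scaling, 6 in NOD mice alone, 12 to 98 without single mice) and 176 in C57 (41 in C57 mice alone, 89 without the mice of high Gapdh ratio, as low as 74 without single mice). Age changes in NOD and C57 and strain by age stayed at 0 throughout. At the methods' thresholds, the one-way test without moderation called 1 member at each age across strains (adjusted p under 0.005). Across ages, the unadjusted test without moderation called 4 in NON and none in NOD or C57 mice. That age test took its spread from all 30 mice. The methods used a t-test within 1 strain, which was not run here.

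The differences of 1449991_at of Cd244a at 2 weeks and of 1420659_at of Slamf6 for NOD minus C57 at both ages and NON minus C57 at 4 weeks passed in all 41 alternatives. The age change of 1420659_at of Slamf6 in NON mice passed whichever single mouse was left out. NOD minus C57 on 1426120_a_at of Cd244a at 2 weeks lost its call without NOD replicate 4 (adjusted p = 0.051), NOD replicate 5 (0.0621) or C57 replicate 5 (0.0531), and on 1457773_at of Slamf6 at 4 weeks without C57 replicate 3 (0.0566). For the rest, the mouse whose removal moved the adjusted p furthest was NON replicate 5 for Cd84 at 2 weeks (0.0744), C57 replicate 3 for NON minus C57 on 1457773_at at 2 weeks (0.128), NOD replicate 2 for NOD minus the controls on 1420659_at at 2 weeks (0.0881), C57 replicate 3 for NOD minus C57 on 1449991_at of Cd244a at 4 weeks (0.0884), NOD replicate 4 for NOD minus the controls on 1457773_at at 4 weeks (0.137) and the NON mouse 5 of 2 weeks for Sh2d1a (0.174). NOD minus the controls on 1457773_at of Slamf6 at 4 weeks passed in 22, NON minus C57 at 2 weeks on that probe set in 21, and the age change of Sh2d1a in NON mice in 26 of 41. Median scaling moved the median of all probe sets for NOD minus C57 by over 0.1, to -0.07 at 4 weeks (0.04 before) and -0.07 at 2 weeks (0.07 before). Labels number the mice 1 to 5 in every group, but same-numbered mice are different animals. Of 75 same-numbered pairs, 8 had deviations correlated above 0.1 (range -0.149 to 0.187). The median r was 0.037 for same-numbered pairs and -0.009 for pairs of different numbers. Whether same-numbered mice shared a batch was not tested. The replicate block was used as an alternative only, and it changed no count of members beyond those given. It ended the calls on 1457773_at of Slamf6, that of Cd84 and that of NOD minus C57 on 1449991_at of Cd244a at 4 weeks.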
